A study of Homo sapiens with 12 samples.

Results

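The p53 target genes CDKN1A, BTG2, GADD45A, MDM2, TP53INP1, AEN, TP53I3, ZMAT3, SESN1 and FDXR were followed in human lung adenocarcinoma cells that had survived osimertinib. A member was any probe set of the deposited table whose platform gene symbol was 1 of these 10 names, which gave 8 probe sets for 8 genes among 21448 probe sets. BTG2 and FDXR carried no probe set under their symbol and are not analysed here. The lines were H1975 and PC-9, which both carry an activating mutation of the epidermal growth factor receptor, and each gave 2 groups of 3 arrays. Tolerant cells of either line were those alive at day 8 after 1 week with 0.5 µM osimertinib, an inhibitor of that receptor. SK-216 cells were such cells that were still alive 48 h after 100 µM SK-216 was added, which the labels describe as a PAI-1 inhibitor and give by its code name. All 4 groups had therefore received osimertinib, and no untreated cells were analysed here. The added 48 h and survival through them go with SK-216 in every comparison and cannot be told apart from it. The source names of the SK-216 samples call the starting cells naive, whereas titles, descriptions and protocol call them tolerant.

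The transcription factor p53 is held at a low level by MDM2, a ubiquitin ligase that is itself a p53 target, and it accumulates when DNA is damaged or growth is disturbed. It then raises genes that stop the cell cycle, repair DNA, adjust metabolism or start apoptosis. Several of these genes also respond to other stress factors.

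Values are log2 signals, and a change is a difference of log2 signals. Changes are given ± the standard error of the limma fit, and levels ± SD with n = 3 arrays. A change counted as a rise or a fall where its p-value, after Benjamini-Hochberg adjustment over the whole table, lay below 0.05. Nothing in the labels says that the replicates came from separate cultures, so these p-values measure only the spread between arrays, which may be technical. In bulk RNA, fewer cells with a transcript and less of it per cell cannot be told apart.

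Promoter windows of RefSeq (GRCh38.p14), 250 bases before to 50 after a start, were given for 6 of the 8 measured genes. None was given for GADD45A or TP53INP1, whose promoters were therefore not searched. The windows given were searched on both strands for the p53 consensus decamer, whose pattern is the same on both strands. It was found once in AEN and once at the third listed start of SESN1, while 6.63% of all 35116 windows held it. Pairs of decamers up to 13 bases apart were found in none of the members' windows and in 0.0285% of all windows. The element TGATGNAAN, bound by ATF4 with its partners, was found in none of the members' windows and in 3.61% of all. In a search chosen after these matches were seen, the best fit to 2 adjoining decamers, which span 20 bases, had 2 mismatches in AEN and at the MDM2 start inside the gene, as few as in 0.649% of all windows. SESN1 had 3 mismatches, as few as in 5.20%, ZMAT3 had 4, as few as in 26.0%, and CDKN1A and TP53I3 had 5, as few as in 70.5%. Shown are the 150 bases before the start for the gene that rose most in H1975 (AEN), for the gene that rose in PC-9 (CDKN1A) and for the textbook p53-responsive start of MDM2, together with the best 20 bases of SESN1. Capitals mark the best fit of 20 bases. No such stretch of CDKN1A is marked, since its best fit was no closer than that of most windows and the p53 sites known for this gene lie farther upstream. A match is a resemblance of letters and not a measured binding site.

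AEN, plus strand, chr15:88621190-88621339: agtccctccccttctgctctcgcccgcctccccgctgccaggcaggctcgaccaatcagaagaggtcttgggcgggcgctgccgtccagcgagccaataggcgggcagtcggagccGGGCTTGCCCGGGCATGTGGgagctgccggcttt
MDM2, plus strand, chr12:68808867-68809016: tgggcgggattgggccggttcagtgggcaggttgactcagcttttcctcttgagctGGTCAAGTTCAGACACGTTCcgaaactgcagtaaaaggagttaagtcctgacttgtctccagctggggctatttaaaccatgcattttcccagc
CDKN1A, plus strand, chr6:36678564-36678713: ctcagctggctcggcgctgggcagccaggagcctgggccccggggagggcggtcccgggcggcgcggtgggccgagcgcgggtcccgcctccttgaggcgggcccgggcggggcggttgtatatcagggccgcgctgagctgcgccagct
SESN1, minus strand, chr6:109009018-109009037: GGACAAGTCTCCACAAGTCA

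The first comparison asked what SK-216 changed in tolerant H1975 cells. GADD45A and AEN rose, by 1.64-fold and 1.70-fold, and no member fell by the test. The other 6 did not pass: MDM2, TP53I3 and CDKN1A were on the higher side, and SESN1, TP53INP1 and ZMAT3 on the lower. So 2 of 8 members rose, where 1.44% of all probe sets rose, 2.35% fell and 3.80% changed in either direction. The members' median change was 0.26, against 0.01 over all probe sets, and their median size without sign was 0.48, against 0.16.

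GADD45A (probe set TC0100008664.hg.1), a stress sensor that inhibits the CDK1 kinase and binds PCNA, had signals of 10.26, 10.08 and 10.74 in tolerant H1975 cells and of 11.03, 11.24 and 10.96 with SK-216. The groups did not overlap, and the third tolerant array lay closest to the SK-216 arrays. The change was 0.72 ± 0.14 (adjusted p = 0.0024), and it stayed between 0.58 and 0.91 in the 12 fits that left out 1 array, all with a call. CDKN1A (probe set TC0600007847.hg.1) encodes p21, the inhibitor of cyclin-dependent kinases through which p53 arrests cells in G1. Its signals were 8.18, 8.55 and 8.26 in tolerant cells and 8.50, 8.68 and 8.34 with SK-216, so the groups overlapped. The change of 0.18 ± 0.16 did not pass (adjusted p = 0.71), with a 95% confidence interval from -0.16 to 0.52.

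MDM2 gave 10.08, 10.44 and 10.04 in tolerant cells and 10.59, 10.52 and 10.68 with SK-216. Every SK-216 array lay above every tolerant one, but the change of 0.41 ± 0.15 did not pass (adjusted p = 0.15). TP53INP1, a nuclear protein that helps p53 act on death genes and takes part in autophagy, gave 6.92, 6.90 and 7.35 in tolerant cells and 6.56, 6.44 and 6.53 with SK-216. Here every SK-216 array lay below every tolerant one, and the change of -0.55 ± 0.19 did not pass either (adjusted p = 0.13). Arrays of both groups stood apart without overlap in 5 of the 8 members, GADD45A, MDM2, TP53INP1, AEN and SESN1, and in 18.5% of all probe sets.

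AEN (probe set TC1500008231.hg.1), an exonuclease that degrades nucleic acid in apoptosis, gave 9.26, 9.44 and 9.06 in tolerant cells and 9.97, 9.83 and 10.25 with SK-216. All 3 SK-216 arrays lay above the tolerant ones, and the third was the highest. The change was 0.76 ± 0.16 (adjusted p = 0.0063). Without SK-216 array 3 it was 0.65 and the call ended (adjusted p = 0.056), and it held in the other 11 such fits. TP53I3, a quinone oxidoreductase tied to oxidative stress in p53-induced death, gave 10.12, 9.92 and 10.23 before and 10.32, 10.85 and 10.13 with SK-216, with overlap. Its change of 0.34 ± 0.18 did not pass (adjusted p = 0.40). ZMAT3, a zinc finger protein that binds RNA and affects splicing and mRNA stability, gave 9.03, 8.94 and 9.02 in tolerant cells and 9.02, 8.85 and 8.87 with SK-216, with overlap and a change of -0.08 ± 0.18 (adjusted p = 0.91).

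SESN1, a sestrin that restrains mTORC1 when amino acids or redox balance are disturbed, gave 5.90, 5.69 and 6.09 in tolerant cells and 4.96, 5.47 and 5.30 with SK-216. The groups did not overlap, and the change of -0.65 ± 0.24 did not pass (adjusted p = 0.16). These are dim signals. Olfactory receptor probe sets, taken as a guide to unexpressed genes, had a 95th percentile of 5.05, and SK-216 array 1 lay below it. No other member had an array at or below that level.

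**Figure D1:**
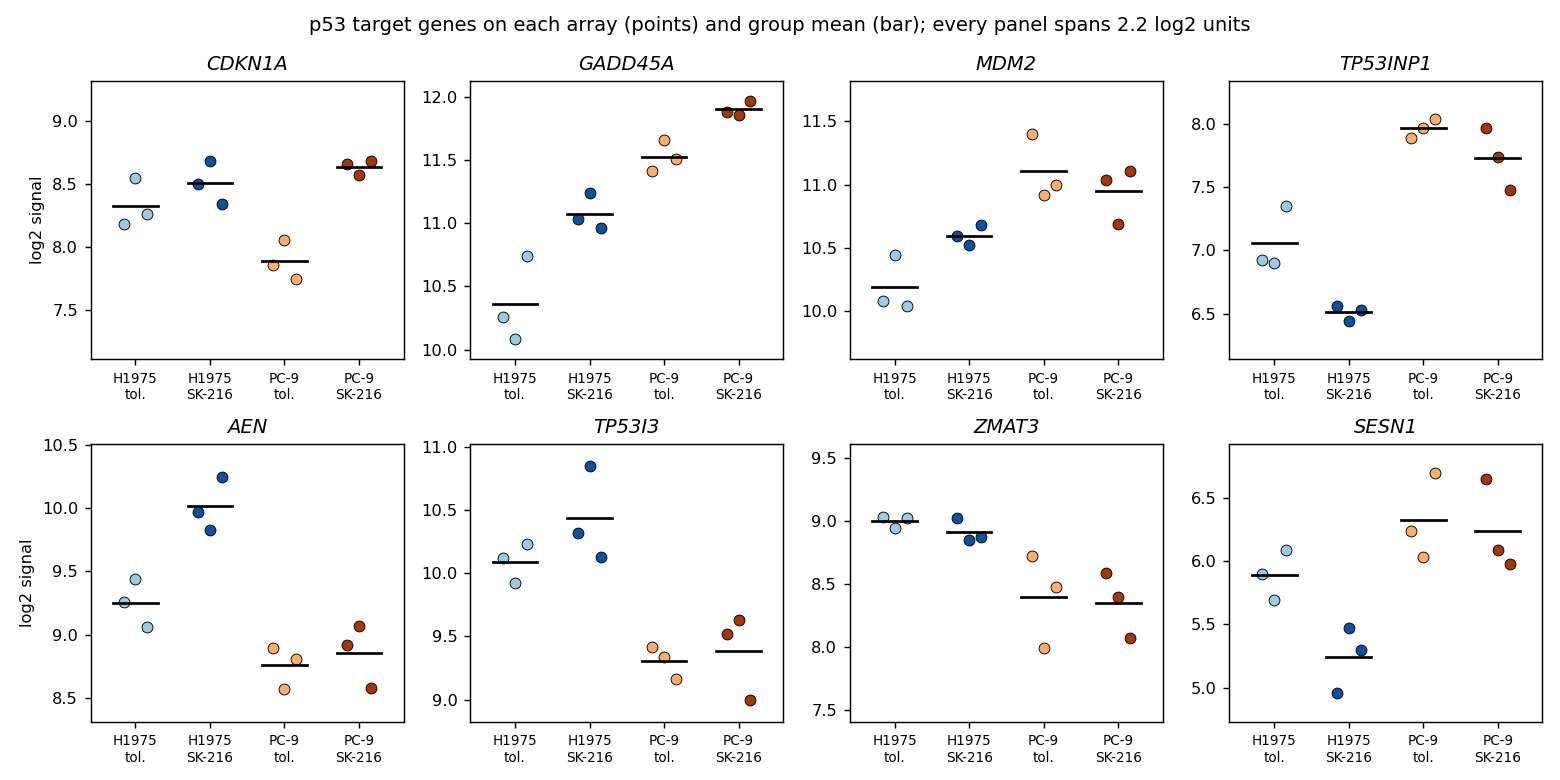
Log2 signal of the 8 measured p53 target genes (y axis, 2.2 log2 units in every panel) on the 12 arrays, with 3 points per group and a bar at the group mean; tol. stands for tolerant. GADD45A and AEN rise with SK-216 in H1975, from 10.36 to 11.08 and from 9.25 to 10.02, and CDKN1A rises in PC-9, from 7.89 to 8.64.

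The second comparison asked the same of tolerant PC-9 cells. CDKN1A rose by 1.68-fold, and none of the other 7 members passed. GADD45A was on the higher side, and MDM2, TP53INP1, AEN, TP53I3, ZMAT3 and SESN1 had changes between -0.24 and 0.10. So 1 of 8 members rose, where 0.373% of all probe sets rose, 0.0699% fell and 0.443% changed in either direction. The members' median change was 0.02, against -0.003 over all probe sets, and their median size without sign was 0.13, against 0.15.

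CDKN1A gave 7.86, 8.06 and 7.75 in tolerant PC-9 cells and 8.66, 8.57 and 8.68 with SK-216. Every SK-216 array lay above every tolerant one. The change was 0.75 ± 0.16 (adjusted p = 0.037), close to the threshold. The call ended in 5 of the 12 fits that left out 1 array. The adjusted p was 0.11 without tolerant array 1, 0.16 without tolerant array 3, and 0.13 without SK-216 array 1, 2 or 3. In those 12 fits the change itself ran from 0.68 to 0.83. The call also ended without the variance trend (adjusted p = 0.11), with quantile normalization (0.060), with PC-9 fitted alone (0.067) and with replicates blocked by number inside each line (0.077).

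GADD45A gave 11.41, 11.66 and 11.51 in tolerant PC-9 cells and 11.88, 11.86 and 11.97 with SK-216. Its groups did not overlap, but the change of 0.38 ± 0.14 did not pass (adjusted p = 0.30). CDKN1A and GADD45A were the 2 of 8 members whose arrays stood apart in PC-9, as did those of 15.0% of all probe sets. MDM2 gave 11.40, 10.92 and 11.00 before and 11.04, 10.69 and 11.11 with SK-216, with overlap and a change of -0.16 ± 0.15 (adjusted p = 0.75).

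The remaining members in PC-9 overlapped between the groups. The change of TP53INP1 was -0.24 ± 0.19 (adjusted p = 0.70). AEN was at 8.76 ± 0.17 and 8.86 ± 0.25, a change of 0.10 ± 0.16 (adjusted p = 0.88), with a 95% confidence interval from -0.24 to 0.44. The change was 0.08 ± 0.18 for TP53I3, -0.04 ± 0.18 for ZMAT3 and -0.08 ± 0.24 for SESN1. The signs of AEN, TP53I3, ZMAT3 and SESN1 in PC-9 each turned without 1 array, so no direction is given for them.

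**Figure D2:**
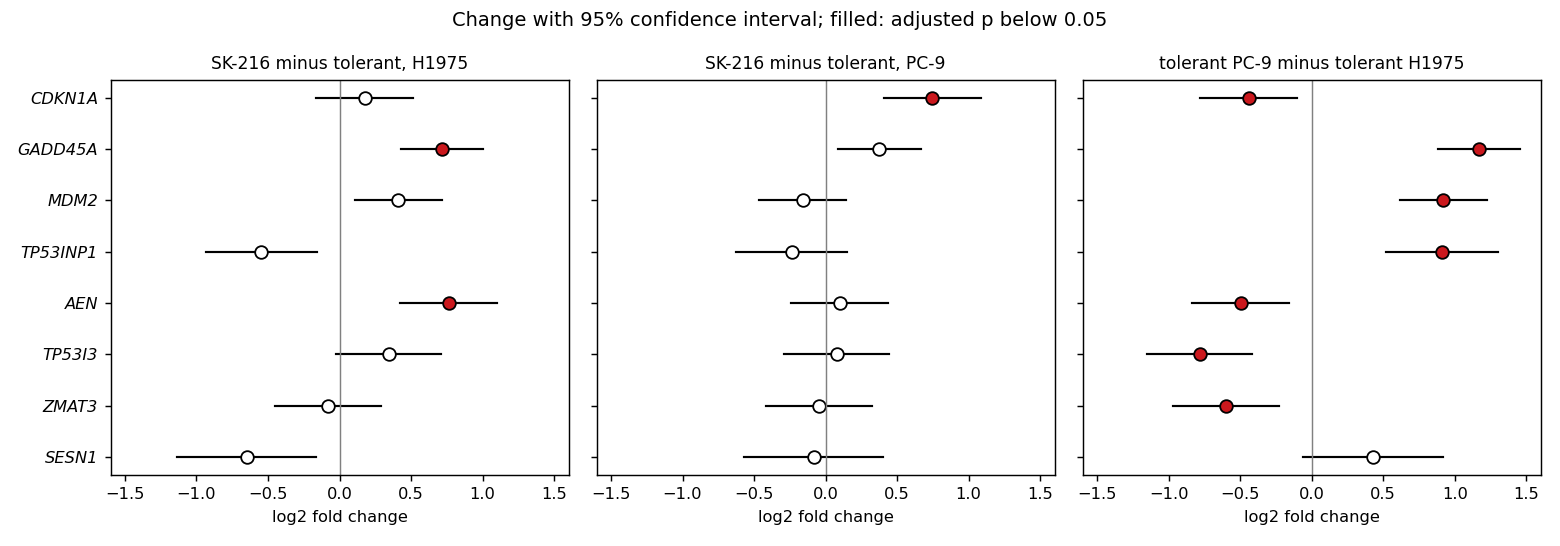
Log2 fold change of each p53 target gene (x axis, point) with its 95% confidence interval (line) for SK-216 against tolerant cells in H1975, the same in PC-9, and tolerant cells of PC-9 against those of H1975; filled points have an adjusted p below 0.05. The filled points are GADD45A and AEN in the first panel, CDKN1A in the second, and all genes but SESN1 in the third.

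Whether the members responded differently in the lines was tested as the difference of the SK-216 changes, PC-9 minus H1975. No member passed by limma's test, and 3 had an unadjusted p below 0.05. Of all probe sets, 1.42% passed, 1.09% with the higher change in PC-9 and 0.331% with the lower. The 3 members with an unadjusted p below 0.05 were AEN, MDM2 and CDKN1A. Their differences were -0.66 ± 0.23 (adjusted p = 0.19), -0.57 ± 0.21 (0.21) and 0.57 ± 0.23 (0.28), in that order. The rise of CDKN1A in PC-9 and that of AEN in H1975 were therefore not shown to differ from the change in the other line. The 95% confidence intervals of these differences were wide, from 0.09 to 1.05 for CDKN1A and from -1.14 to -0.18 for AEN. For GADD45A the difference was -0.34 ± 0.20 (adjusted p = 0.50), with changes on the higher side in both lines.

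Before SK-216 the lines differed in 7 of the 8 members, where 44.0% of all probe sets differed. GADD45A, MDM2 and TP53INP1 were higher in tolerant PC-9 cells, as were 21.3% of all probe sets. CDKN1A, AEN, TP53I3 and ZMAT3 were lower, as were 22.7%, so the members were split between the lines and not shifted one way. The members' median difference was -0.01, against 0.02 over all probe sets. The arrays of the lines did not overlap in 7 of 8 members and in 50.2% of all probe sets. SESN1 did not pass (0.43 ± 0.24, adjusted p = 0.16).

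GADD45A differed most in size, at 11.53 ± 0.13 in tolerant PC-9 and 10.36 ± 0.34 in tolerant H1975 cells, 2.25-fold (1.17 ± 0.14, adjusted p = 1.23e-07). MDM2 was higher by 0.92 ± 0.15 (adjusted p = 9.76e-06), and TP53INP1 by 0.91 ± 0.19 (adjusted p = 0.00026). TP53I3 was lower in PC-9, at 9.31 ± 0.13 against 10.09 ± 0.16, a difference of -0.78 ± 0.18 (adjusted p = 0.00068). Each of these 4 calls held in all 12 fits without 1 array.

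The other line differences were less steady. ZMAT3 was lower in PC-9 (-0.60 ± 0.18, adjusted p = 0.0077), with a low tolerant PC-9 array 2 at 7.99. Without that array the difference was -0.40 and the call ended (adjusted p = 0.081). AEN was lower in PC-9 (-0.50 ± 0.16, adjusted p = 0.015), and the call ended without tolerant H1975 array 2 (adjusted p = 0.086) or tolerant PC-9 array 2 (0.078). CDKN1A was lower in PC-9 (-0.44 ± 0.16, adjusted p = 0.031), and the call ended without tolerant H1975 array 2 (adjusted p = 0.17), tolerant PC-9 array 1 (0.068) or tolerant PC-9 array 3 (0.12), and with quantile normalization (0.064).

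Set in order over the 4 groups, the members fell into several patterns. For GADD45A the order from lowest to highest was tolerant H1975, SK-216 H1975, tolerant PC-9 and SK-216 PC-9, at 10.36, 11.08, 11.53 and 11.90, and no neighbouring groups overlapped. MDM2 and TP53INP1 had both H1975 groups below both PC-9 groups, and their PC-9 groups overlapped each other. TP53I3 and ZMAT3 had both PC-9 groups below both H1975 groups, and within each line the groups overlapped. AEN had its PC-9 groups lowest, and SK-216 H1975 cells stood alone at the top, at 10.02 ± 0.21. CDKN1A was lowest in tolerant PC-9 cells, at 7.89 ± 0.16, and the other 3 groups, from 8.33 to 8.64, overlapped with their neighbours. SESN1 was lowest in SK-216 H1975 cells, at 5.24 ± 0.26, and its other 3 groups overlapped with their neighbours.

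Other genes of the pathway came from lists of known p53 regulators and targets, all described by counts. Among the 59 measured of 66 further p53 targets, 6 rose and 1 fell in H1975, and the median change was -0.03, against 0.01 over all probe sets. In PC-9, 1 rose and none fell, with a median of 0.09 against -0.003. At 7 of 59 in H1975 and 1 of 59 in PC-9, these counts stand beside 3.80% and 0.443% of all probe sets.

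By role, the metabolic and secreted group of targets held 3 of the 6 rises in H1975. GDF15, a secreted stress cytokine, rose by 0.97 ± 0.17 (adjusted p = 0.0012), from 9.80 to 10.77. DDIT4, an inhibitor of mTORC1, rose by 0.64 ± 0.13 in H1975 (adjusted p = 0.0038) and by 0.63 ± 0.13 in PC-9 (adjusted p = 0.027), where it was the 1 rise. Its PC-9 call ended without tolerant array 1 (adjusted p = 0.12), SK-216 array 1 (0.18) or SK-216 array 2 (0.066). It also ended without the variance trend (0.20), with quantile normalization (0.063), with PC-9 fitted alone (0.077) and with replicates blocked by number inside each line (0.077). SESN2, the paralog of SESN1, rose by 0.64 ± 0.18 in H1975 (adjusted p = 0.046), while the change of SESN1 was -0.65 and did not pass. That call ended in 8 of the 12 fits without 1 array, with an adjusted p of up to 0.16. It also ended with H1975 fitted alone (0.057) and with replicates blocked by number over both lines (0.063) or inside each line (0.081). Among 12 measured paralogs of the members, SESN2 was the 1 with a call in H1975, where 6 had an unadjusted p below 0.05. By limma's test none had a call in PC-9, where 1 had an unadjusted p below 0.05. Of all probe sets, 3.80% had a call in H1975 and 0.443% in PC-9. MDM4, the p53-binding relative of MDM2, had a change of 0.41 ± 0.15 in H1975 (adjusted p = 0.14) and of -0.10 ± 0.15 in PC-9 (adjusted p = 0.86).

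In the growth arrest group, E2F7, a repressor of cell cycle genes, rose by 0.89 ± 0.17 in H1975 (adjusted p = 0.0021), and PLK2, a stress-induced kinase, fell, with a change of -0.43 ± 0.09 (adjusted p = 0.0059). E2F7 also passed the test of the difference between the lines (-0.97, adjusted p = 0.038). The call of PLK2 ended without the variance trend (adjusted p = 0.12). In the cell death group, 1 of 16 rose. It was PMAIP1, the BH3-only protein NOXA, at 0.78 ± 0.20 (adjusted p = 0.022), and this call ended without tolerant array 1 (adjusted p = 0.12), tolerant array 2 (0.070), SK-216 array 1 (0.099) or SK-216 array 3 (0.057), and without the variance trend (0.066). BAX, the pore-forming death effector, was level at 0.05 ± 0.12 in H1975 and 0.02 ± 0.12 in PC-9, neither past the test.

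None of the 6 measured DNA repair targets and none of the 14 measured regulators of p53 passed limma's test in either line. Of these, 0 and 1 had an unadjusted p below 0.05 in H1975, and 1 and 1 in PC-9. Among 21 remaining targets 1 rose in H1975, HSPA4L, a chaperone of the HSP110 family, at 0.77 ± 0.11 (adjusted p = 6.56e-05), and it too passed the test of the difference (-0.72, adjusted p = 0.013).

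Cell cycle genes that p53 lowers through p21 and the DREAM repressor complex gave no fall by limma's test in either line. In H1975 none of 21 passed and 2 had an unadjusted p below 0.05, with a median change of 0.04. In PC-9, where CDKN1A rose, 2 of 21 rose, beside 0.373% of all probe sets. Of the 21, 13 had an unadjusted p below 0.05 and 20 had a positive change. Their median was 0.30, against -0.003 over all probe sets. AURKA, a mitotic kinase, changed by 0.48 ± 0.10 (adjusted p = 0.018) and CCNA2, cyclin A2, by 0.42 ± 0.09 (adjusted p = 0.038). Without tolerant array 2 or 3, or SK-216 array 1 or 2, neither passed. CCNA2 also lost its call without tolerant array 1, SK-216 array 3 or tolerant H1975 array 2, and the adjusted p reached 0.13 for AURKA and 0.19 for CCNA2. Without the variance trend it was 0.20 and 0.24, with replicates blocked inside each line 0.073 and 0.10, and with PC-9 fitted alone 0.051 and 0.051. CCNA2 also lost its call with quantile normalization (adjusted p = 0.083) and with replicates blocked over both lines (0.057).

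Genes of the ATF4 stress response, a list that shares DDIT4 and SESN2 with the p53 targets, rose in 9 of 9 cases in H1975, with a median change of 0.81. Of all probe sets, 1.44% rose in H1975, with a median of 0.01, and 0.373% rose in PC-9, with a median of -0.003. In PC-9, 5 of 9 genes of the list rose, with a median of 0.52. The H1975 count ran from 7 to 9, both over all alternatives and in the fits without 1 array. The PC-9 count was between 1 and 3 without any 1 array of that line, and 0 without the variance trend. DDIT3, the transcription factor CHOP, rose by 1.65 ± 0.23 in H1975 (adjusted p = 4.76e-05), and ATF3 by 1.48 ± 0.17 (adjusted p = 4.66e-06). In PC-9 neither passed: the change was 0.52 ± 0.23 for DDIT3 (adjusted p = 0.40) and 0.28 ± 0.17 for ATF3 (adjusted p = 0.59). The difference between the lines passed for ATF3 (-1.20, adjusted p = 0.0092) and not for DDIT3 (-1.13, adjusted p = 0.083). ASNS, asparagine synthetase, rose by 0.85 ± 0.12 in H1975 (adjusted p = 9.49e-05) and by 0.78 ± 0.12 in PC-9 (adjusted p = 0.0016), the latter lost without the variance trend (adjusted p = 0.093). TRIB3, a pseudokinase, rose by 1.38 ± 0.18 in H1975 (adjusted p = 2.14e-05) and by 0.96 ± 0.18 in PC-9 (adjusted p = 0.011), the latter lost without tolerant array 3 or SK-216 array 1 or 2 (adjusted p up to 0.11), with PC-9 fitted alone (0.067) and without the variance trend (0.093). The part of this response in the changes of the p53 targets was not tested.

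**Figure D3:**
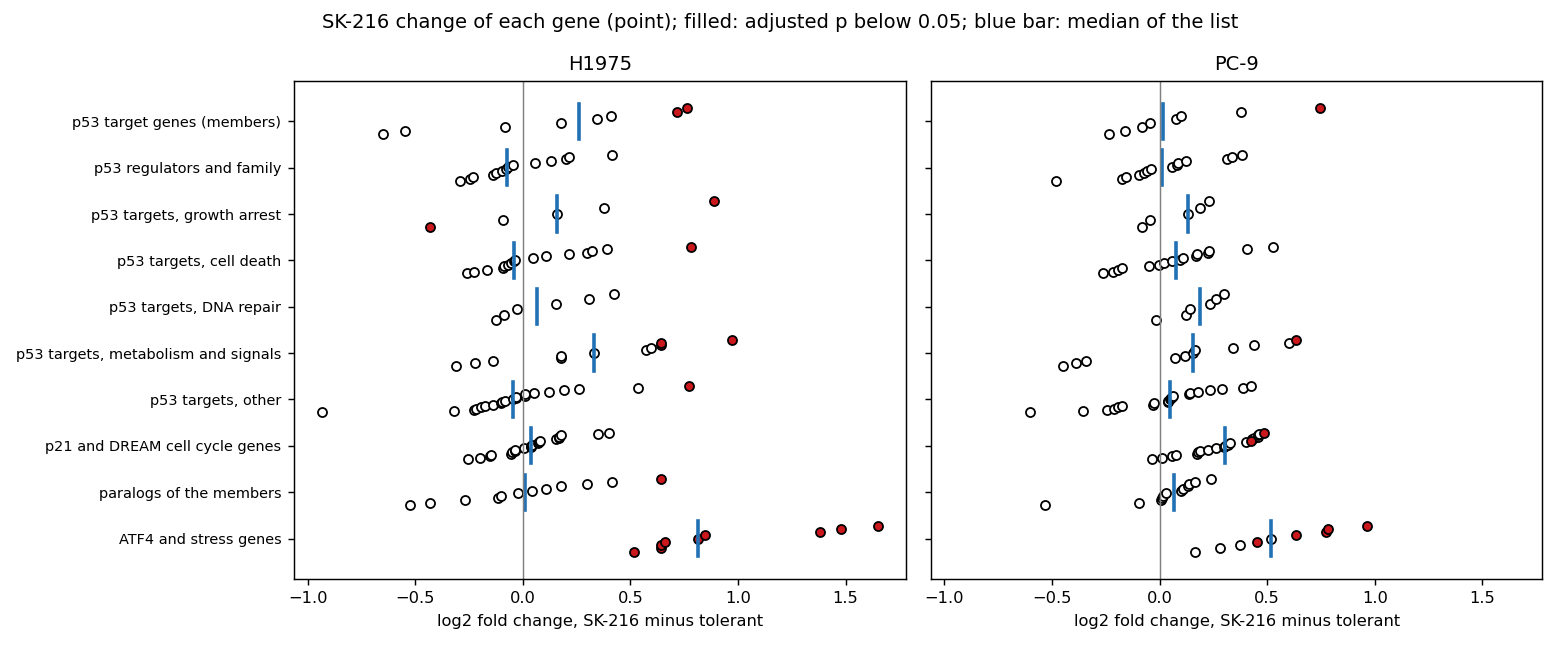
Log2 fold change with SK-216 (x axis) of each measured gene (point) of the p53 target genes and of the lists beside them (y axis), in H1975 and PC-9; filled points have an adjusted p below 0.05 and blue bars are list medians. The members' median is 0.26 in H1975 and 0.02 in PC-9, and the ATF4 list lies farthest to the right, with medians of 0.81 and 0.52.

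The genes most like a member were sought by the root mean square difference of log2 signals over the 12 arrays, each gene centred on its own mean. For CDKN1A they were ZSCAN32, C10orf71 and CBS, at 0.14 to 0.16, where the median gene was at 0.45. C10orf71 lay at signals of 3.81 to 4.34, within the olfactory receptor range. For MDM2 they were CBL, CAPRIN2 and DAGLA, at 0.12 to 0.14 (median gene 0.49). For GADD45A they were OSGIN2, ATP6V0B and SRXN1, at 0.19 to 0.21 (median gene 0.66). A gene with the same signal on all arrays would lie at 0.31 from CDKN1A, 0.39 from MDM2 and 0.60 from GADD45A.

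Within groups, pairs of arrays had correlations across probe sets from 0.9934 to 0.9953. All 6 epithelial markers lay above the olfactory receptor level in every group. In H1975, EPCAM and KRT7 rose, by 0.77 ± 0.13 and 0.33 ± 0.08. CDH1, which encodes E-cadherin, and KRT8 fell there, with changes of -1.55 ± 0.13 and -0.24 ± 0.06, and none of the 6 passed in PC-9. The fibroblast list had 2 of 5 markers at or below that level in each group. Its mean signal per array ran from 6.34 to 6.57 in tolerant and from 6.11 to 6.27 in SK-216 H1975 cells, and from 5.45 to 5.67 and 5.60 to 5.86 in PC-9. COL1A1, which cancer cells can also express, fell in H1975, with a change of -0.96 ± 0.21 (adjusted p = 0.0069). Leukocyte markers had 2 of 4 at or below that level in each group, and endothelial markers 3 of 3 in H1975 and 1 of 3 in PC-9. None of these 7 genes passed limma's test in either line, and 2 in H1975 and 0 in PC-9 had an unadjusted p below 0.05. The part of these markers in the members' changes was not tested.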

How the data were processed

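The authors deposited 1 table of log2 signals, with a value for each probe set and array, from 250 ng of RNA per the labels' protocols. The software was Transcriptome Analysis Console, per the submitters' processing notes. Neither its version nor the normalization or genome build is stated in the sources used here. Values ran from 2.19 to 18.61, with array medians from 6.56 to 6.62, and were used as they stood, with no filter. Arrays give no read depth, and their number, 3 per group, limits the precision. Gene symbols came from the platform annotation: 17709 probe sets had 1 symbol, none several and 3739 none. Their Entrez identifiers were all found in a RefSeq table of GRCh38.p14.

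With limma 3.58.1 (R 4.3.3), 1 mean per group was estimated over the 12 arrays together, using lmFit and eBayes with a variance trend (8 residual degrees of freedom). All tests were two-sided, with Benjamini-Hochberg adjustment across the 21448 probe sets. The fit was tested on simulated data, with 200 changed probe sets per line. Planted log2 changes of 0.5 were recovered in 31.3% (H1975) and 32.8% (PC-9) of cases. Those of 1 were recovered in 91.0% and 88.1%, and those of 2 in 100% and 100%. In the data 814 probe sets passed in H1975 and 95 in PC-9, so the adjusted threshold differed between the lines and from the simulation. The recovered shares therefore do not compare the power in the 2 lines.

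The members and lists were chosen with earlier results of these data known. Named genes were all members, MDM4 and, per list, up to 4 genes with the smallest adjusted p among those with a call for SK-216. For CDKN1A, MDM2 and GADD45A the 3 genes most like them were also named, as was BAX, chosen after its values were seen. Promoters were searched and figures drawn with Python 3.11.15 and matplotlib 3.10.9.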

Additional observations from a re-analysis of the deposited data

How the results depend on the processing

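The simulation, with 3 arrays per group, planted 200 changes in each line. It recovered a log2 change of 0.5 in 31.3% of cases in H1975 and 32.8% in PC-9. Far fewer probe sets passed in PC-9 than in H1975 in the data, so these shares do not measure the power in either line. A member that did not pass is bounded only by its confidence interval. The count of members with a call in H1975 was 2 in the 10 alternatives that kept all arrays, and 1 to 2 in the fits without 1 array. In PC-9 it was 1, and 0 without the variance trend, with the replicate block within each line, with quantile normalization, at an adjusted p below 0.01 and with the line fitted alone. It was 0 to 1 without 1 array. No member passed for the difference under any alternative, and 5 to 7 passed between the lines. Signs turned in PC-9, without a call, in fits without 1 array: AEN ran from -0.0067 (without SK-216 array 2) to 0.24, TP53I3 from -0.047 (without SK-216 array 2) to 0.27, ZMAT3 from -0.25 to 0.12 (without tolerant array 1) and SESN1 from -0.29 to 0.11 (without tolerant array 3). ZMAT3 also turned without SK-216 array 3 (0.10), as did SESN1 (0.05). The difference for ZMAT3, 0.04, was -0.0025 with quantile normalization and ran from -0.16 (without tolerant PC-9 array 2) to 0.20 without 1 array.

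Over all probe sets, 814 passed in H1975 and 448 without the variance trend or 422 at 0.01, 95 passed in PC-9 and 18 or 33, and 304 passed for the difference and 99 or 136. With the replicate block within each line 58 passed in PC-9, and 46 without tolerant array 3, 60, 30 and 59 without SK-216 array 1, 2 and 3 of that line. Same-numbered arrays deviated together at r between -0.09 and 0.03, which does not tell whether they shared a culture or day. The block changed no other member's call.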
